A study of Homo sapiens with 6 samples.

Results

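The 53 genes described here act in DNA replication or around entry into S phase, and they were taken from the table by symbol. They cover origin licensing, the replisome, nucleotide supply, cyclin E, 2 E2F factors and the assembly of chromatin behind the fork. All 53 symbols were found once among the 50868 genes of the table, and all 53 were among the 15213 genes with enough counts to be tested. RNA was sequenced from B4G12 cells, a clonal line from human corneal endothelium transformed with the SV40 early region. The siControl group is 3 libraries labelled WT for genotype, from cells given a control siRNA. The siNAMPT group is 3 libraries labelled NAMPT knockdown, from cells given an siRNA against NAMPT, the enzyme that limits NAD salvage. Both groups therefore carried an siRNA. No label gives the siRNA sequences, their dose or the time of harvest. The comparison asks which transcripts differ when NAMPT is depleted.

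Replication is prepared in G1, when the origin recognition complex, CDC6 and CDT1 load the MCM helicase ring onto DNA. Cyclin E with CDK2, and the kinase CDC7 with DBF4, then turn the loaded ring into a running helicase by bringing in CDC45 and GINS. In untransformed cells, E2F factors drive transcription of many of these genes. RB proteins hold E2F factors back until cyclin D and cyclin E kinases release them. Whether this control operates in the SV40-transformed B4G12 cells was not tested. In the healthy adult cornea, endothelial cells rest in G1 and hardly divide, whereas transformed lines such as B4G12 keep cycling in culture.

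Total counts were 19510796 to 22364717 per library. NAMPT had counts of 3480, 3603 and 3996 in siControl and 594, 572 and 673 in siNAMPT, 83.5% lower after scaling to library size (log2 fold change −2.60, SE 0.07, adjusted p = 2.60e-06 in edgeR's quasi-likelihood test). Of 13 corneal endothelial markers, 9 could be tested, and 1 of them was lower (CDH2, log2 fold change −0.92) and 2 higher (CA2 and FOXC1). Over all genes tested 21.9% were called lower and 20.8% higher. The summed FPKM of the 13 endothelial markers was 218 to 225 in siControl and 240 to 247 in siNAMPT. The transporter SLC4A11 was at 4.37 to 5.84 FPKM over the 6 libraries, while COL8A2 and ZP4 had at most 6 counts in any library. The basal epithelial keratins KRT5 and KRT14 were high, with mean FPKM of 235.8 and 544.1 in siControl, so the labelled cell type is not borne out by all of its markers. Of 9 epithelial markers, KRT12 had no count and of the 8 tested 3 were lower and 3 higher, with KRT14, KRT6A and EPCAM lower, KRT5, KRT15 and TP63 higher, and a median log2 fold change of 0.31. KRT15 moved most (1.85), and the summed FPKM of the list, mostly KRT14 and KRT5, was 938 to 1020 in siControl and 914 to 1014 in siNAMPT. The part of these marker shifts in the replication results was not tested. Transcripts of the mitochondrial genome took 5.68 to 6.03% of counts in siControl and 6.89 to 7.04% in siNAMPT, and the part of this shift in the results was not tested. Stroma, vascular endothelium and leukocytes were nearly absent by their markers, with summed FPKM of at most 1.37, 1.01 and 0.096 in siControl and 2.15, 1.34 and 0.182 in siNAMPT. KERA, the stromal keratocan gene, had no count, and the part of these small shifts in the results was not tested. No label ties the 3 libraries of a group to separate cultures. The p-values therefore describe the spread among these libraries alone, and that spread may be technical.

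Replication genes were lower in siNAMPT as a group, though the 53 were chosen with earlier results of these data known. Of the 53 genes, 37 were called lower (adjusted p under 0.05 in edgeR's quasi-likelihood test) and 0 higher, while over all genes tested 21.9% were called lower and 20.8% higher. At an unadjusted p under 0.05 the numbers were 41 lower and 0 higher, and DESeq2 and limma called 0 higher as well. The median log2 fold change was −0.42 for the 53 genes and 0.00 for all genes tested, and 51 of the 53 values lay below 0. All 3 siNAMPT libraries were below all 3 siControl libraries for 43 of the 53 genes, against 27.7% of all genes tested. Most of the falls were small: 10 genes fell at least 1.5-fold and 3 of them at least 2-fold. In bulk RNA, fewer cells in S phase and less RNA per cell cannot be told apart.

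The libraries within a group lay close together. Against the siControl mean, the median of the 53 genes was −0.41, −0.41 and −0.36 on the log2 scale in siNAMPT replicates 1, 2 and 3. In the siControl libraries it was 0.01, 0.01 and −0.01. Summed over the 53 genes, library-scaled counts (CPM, with TMM factors) were 7137 ± 109 (SD, n = 3) in siControl and 5405 ± 13.3 (SD, n = 3) in siNAMPT, 24.3% lower. Of the 53 genes, 51 were below every siControl library in siNAMPT replicate 1, 46 in replicate 2 and 47 in replicate 3.

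**Figure D1:**
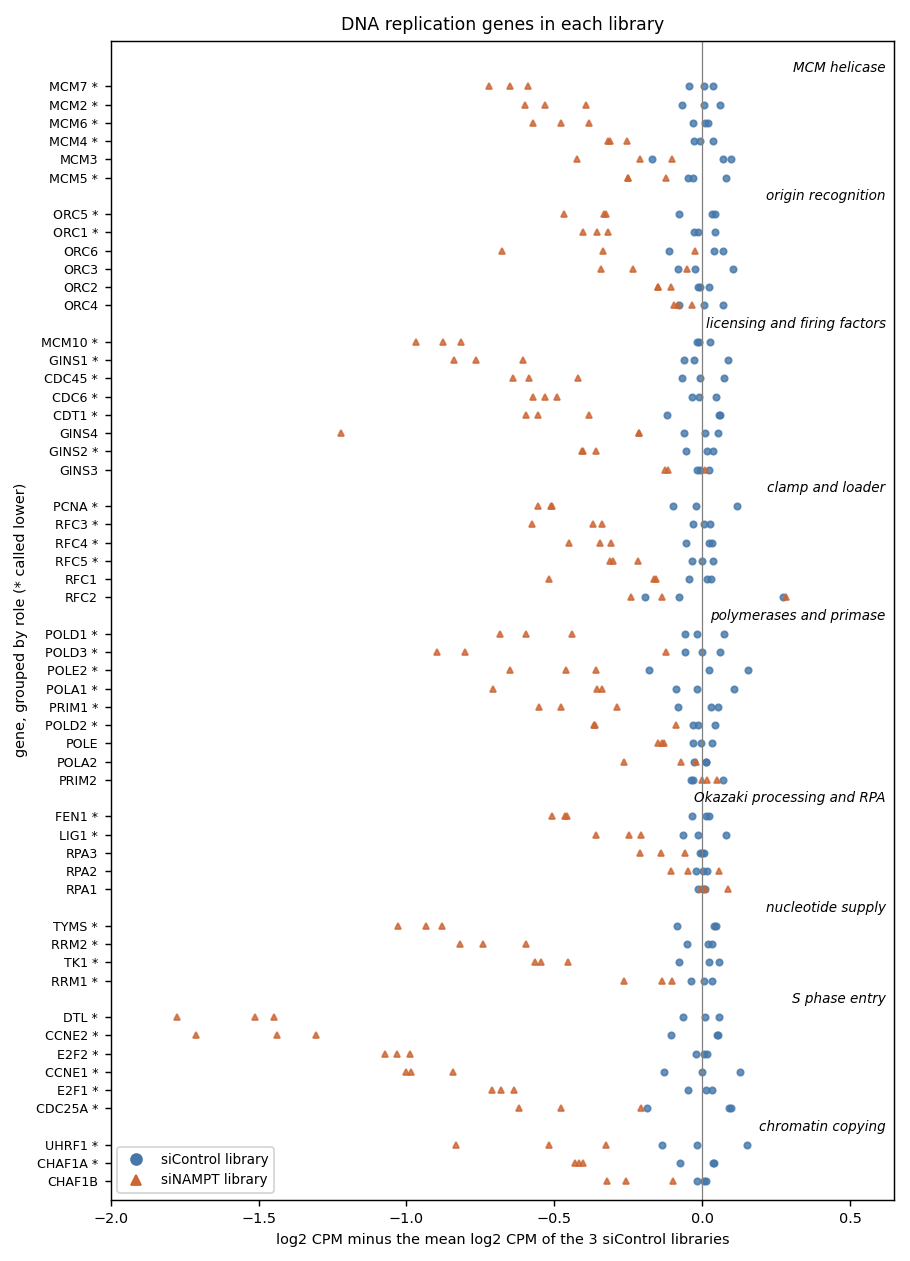
Each row is 1 gene and each point 1 library, plotted as log2 CPM minus the mean log2 CPM of the 3 siControl libraries, with genes grouped by role and an asterisk on those called lower. The siNAMPT points lie left of the siControl points for 43 of 53 genes, furthest for DTL and CCNE2, and GINS4, POLD3 and RFC2 hold libraries apart from the others of their group.

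Many promoters of these genes hold words of the kind that E2F factors bind. The genes were chosen for roles that E2F factors are known to drive, so this is no independent finding. E2F factors bind sites of the kind TTTGGCGC. RefSeq promoters (GRCh38.p14, 250 bases before to 50 after the annotated start) were matched for 46 of the 53 genes. For 30 of the 46, bases 6 to 25 after the start lay within the first 300 bases of the chosen GENCODE 29 transcript, so some starts differ between the annotations. They were searched on both strands for 8 words of 8 bases: TTTCCCGC, TTTCCCGG, TTTGGCGC, TTTGGCGG, TTTCGCGC, TTTCGCGG, TTTGCCGC and TTTGCCGG. Some of these words overlap one another on opposite strands, and overlapping matches were merged into 1 site. At least 1 word was in 27 of the 46 promoters (58.7%), against 6.19% of all 35116 promoters of that length and 10.0% of the 10505 promoters of genes tested. The CCAAT box was in 58.7% of the 46, against 34.6% of all promoters and 37.0% of those of genes tested. TTTGAA, the core of the element used by late cell cycle genes, was in 2.17% of the 46, against 15.2% and 9.76%. A match is a description of letters, not of binding.

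The windows below are shown because they belong to genes with large falls or to steps described later. Each runs 20 bases beyond its outer sites, 5′ to 3′ on the gene's strand, with the E2F words in capitals and the RefSeq build GRCh38.p14. DTL lies at chr1:212035720-212035779 (plus strand), with sites starting at −8 and 4 from the annotated start. E2F2 lies at chr1:23531248-23531310 (minus strand) and E2F1 at chr20:33686378-33686442 (minus strand). CDC6 lies at chr17:40287831-40287913, CDT1 at chr16:88803734-88803789, MCM2 at chr3:127598393-127598444 and MCM10 at chr10:13161543-13161590, all on the plus strand. GINS1 lies at chr20:25407658-25407705 and TYMS at chr18:657594-657641 (both plus strand), and PCNA at chr20:5126654-5126701 (minus strand).
DTL: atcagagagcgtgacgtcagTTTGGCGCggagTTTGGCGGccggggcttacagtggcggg
E2F2: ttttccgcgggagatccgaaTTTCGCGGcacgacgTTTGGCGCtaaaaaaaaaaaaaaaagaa
E2F1: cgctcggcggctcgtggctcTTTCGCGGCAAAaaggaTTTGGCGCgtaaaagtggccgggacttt
CDC6: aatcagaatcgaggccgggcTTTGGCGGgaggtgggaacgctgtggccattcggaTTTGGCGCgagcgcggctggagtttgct
CDT1: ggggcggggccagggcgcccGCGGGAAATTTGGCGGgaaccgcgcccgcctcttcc
MCM2: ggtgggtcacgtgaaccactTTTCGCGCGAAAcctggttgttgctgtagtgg
MCM10: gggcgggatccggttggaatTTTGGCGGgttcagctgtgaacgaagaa
GINS1: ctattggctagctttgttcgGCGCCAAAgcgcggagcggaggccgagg
TYMS: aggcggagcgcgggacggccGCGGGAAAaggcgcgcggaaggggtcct
PCNA: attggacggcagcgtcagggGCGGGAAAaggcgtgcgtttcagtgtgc

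Genes with and without the words both fell. Of the 27 genes with a word, 21 were called lower (77.8%), with a median log2 fold change of −0.49. Of the 19 with a promoter but no word, 12 were called lower (63.2%), with a median of −0.32. Of the 7 genes not matched to a promoter, 4 were called lower. Among all other genes tested, those with a word were called lower in 258 of 1024 cases (25.2%) and those without in 2220 of 9435 (23.5%). These shares were not tested against each other.

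**Figure D2:**
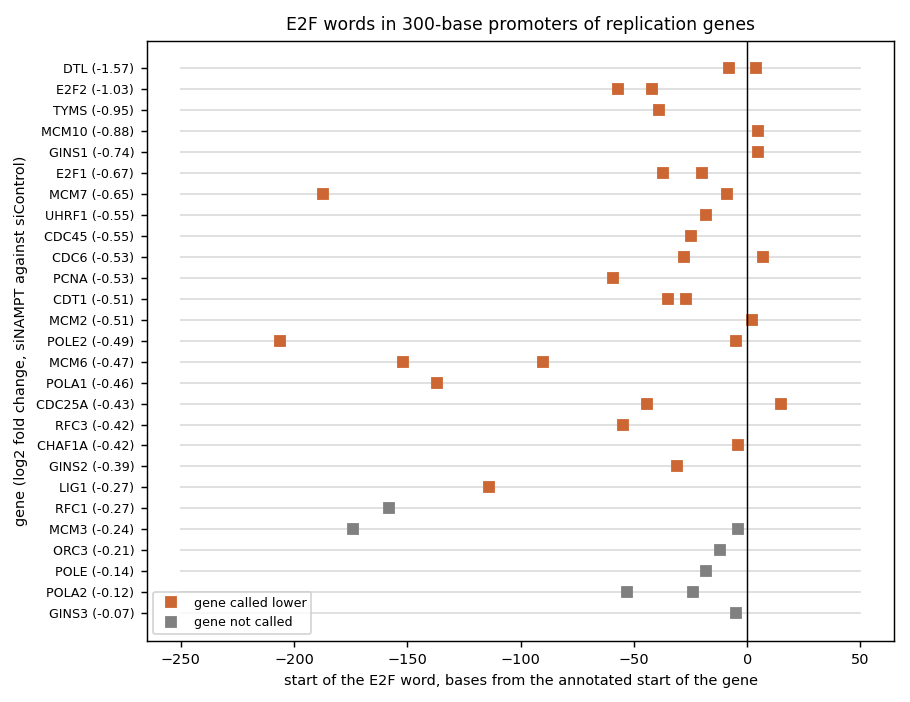
Each row is 1 of the 27 genes with an E2F word, ordered by log2 fold change, each square is a site, and the horizontal axis gives bases from the annotated start. Most sites lie within 60 bases of the start, and those of the 6 genes not called (grey) start at −174 to −4.

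The group labelled S phase entry, which also holds DTL, a gene that acts within S phase, had the lowest median of the 9 roles. All 6 were called lower, with a median log2 fold change of −0.99, and the 3 replication genes that fell at least 2-fold, DTL, CCNE2 and E2F2, are all in this group. Levels per gene are given as deposited FPKM, which is per length, and fold changes come from the test on counts.

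DTL is the substrate receptor of the CRL4 ubiquitin ligase that destroys CDT1 in S phase. Its level was 9.65, 8.88 and 9.47 FPKM in siControl and 2.73, 3.48 and 3.34 FPKM in siNAMPT (log2 fold change −1.57, SE 0.10, adjusted p = 3.43e-05). The groups were far apart, and DTL was 66.4% lower on the CPM scale. DTL (ENSG00000143476) lies on chromosome 1 from 212035553 to 212107400. Of 5 genes tested that are components or targets of this ligase, RBX1 fell (−0.32) and CUL4A rose (0.19). That is 20.0% each way, against 21.9% lower and 20.8% higher of all genes tested. The adaptor DDB1 had a log2 fold change of 0.00 (adjusted p = 0.968).

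Cyclin E activates CDK2 at the start of S phase, and both of its genes fell. CCNE2 was at 2.36, 2.63 and 2.66 FPKM in siControl and 0.779, 0.956 and 1.05 FPKM in siNAMPT (log2 fold change −1.48, SE 0.13, adjusted p = 1.34e-04). CCNE1 was at 1.72, 1.88 and 1.60 FPKM in siControl and 0.875, 0.982 and 0.884 FPKM in siNAMPT (log2 fold change −0.94, SE 0.12, adjusted p = 8.85e-04). No siNAMPT library reached a siControl library for either gene, and the FPKM ratio of CCNE2 to CCNE1 was 1.48 ± 0.165 in siControl and 1.02 ± 0.155 in siNAMPT (SD, n = 3 each). CDK2, their partner kinase, fell by 0.32 on the log2 scale.

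E2F1 and E2F2 are activating members of the E2F family and targets of it. E2F2 was at 7.81, 7.61 and 7.86 FPKM in siControl and 3.92, 3.75 and 3.88 FPKM in siNAMPT (log2 fold change −1.03, SE 0.06, adjusted p = 3.58e-05). E2F1 was at 16.3, 16.6 and 15.9 FPKM in siControl and 10.47, 10.32 and 10.16 FPKM in siNAMPT (log2 fold change −0.67, SE 0.06, adjusted p = 2.31e-04). Replicates of both genes lay within a few percent of each other, and the groups did not overlap. CDC25A, the phosphatase that switches on CDK2, fell less and varied more, at 5.57 to 6.88 FPKM in siControl and 4.24 to 5.62 FPKM in siNAMPT (log2 fold change −0.43, adjusted p = 0.0294). In FPKM, siNAMPT replicate 2 lay just above siControl replicate 1 for CDC25A, and its call was lost when any of 4 libraries was left out (siControl replicate 2 or 3, siNAMPT replicate 1 or 3), with adjusted p of 0.0824 to 0.0860.

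**Figure D3:**
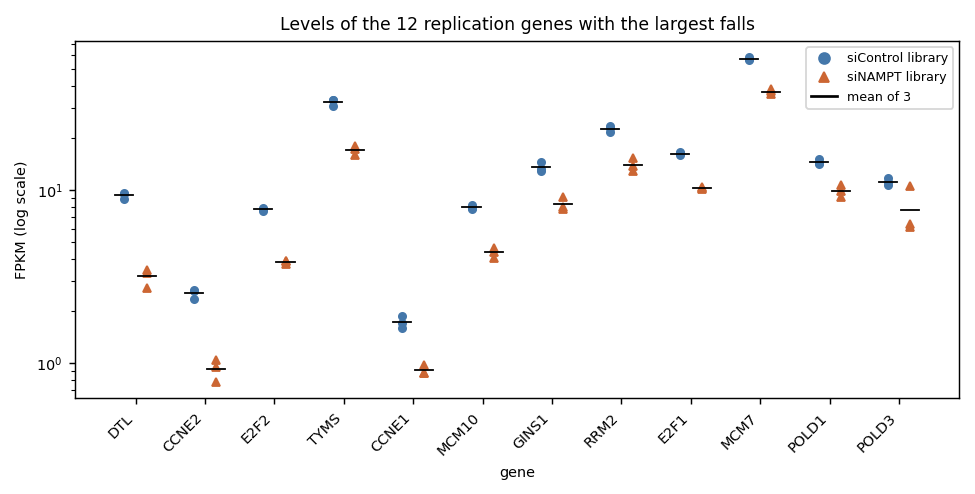
The vertical axis is deposited FPKM on a log scale for the 12 called genes with the largest falls, with 1 point per library and a bar at the mean of 3. The groups are separate for all 12, from CCNE1 at 0.875 to 1.88 FPKM up to MCM7 at 35.8 to 58.8, and POLD3 has 1 siNAMPT library close to siControl.

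Nucleotide supply fell in all 4 genes, and TYMS fell most of the 4. TYMS makes thymidylate from deoxyuridylate, and it was at 33.1, 33.3 and 30.8 FPKM in siControl and 15.9, 17.2 and 18.0 FPKM in siNAMPT (log2 fold change −0.95, SE 0.07, adjusted p = 6.16e-05). TK1, the salvage enzyme for thymidine, was at 89.8, 91.9 and 84.9 FPKM in siControl and 65.01, 61.1 and 62.3 FPKM in siNAMPT (log2 fold change −0.52, SE 0.06, adjusted p = 4.17e-04). For both genes every siNAMPT library was well below every siControl library.

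The 2 subunits of ribonucleotide reductase, which makes deoxynucleotides, fell unequally. RRM2, the small subunit made in S phase, was at 22.8, 21.7 and 23.4 FPKM in siControl and 12.9, 15.3 and 13.9 FPKM in siNAMPT (log2 fold change −0.72, SE 0.07, adjusted p = 2.38e-04). RRM1, the large subunit, was at 42.8, 44.2 and 45.6 FPKM in siControl and 36.9, 41.9 and 41.1 FPKM in siNAMPT (log2 fold change −0.17, SE 0.06, adjusted p = 0.0467). The FPKM ratio of RRM2 to RRM1 was 0.513 ± 0.0208 in siControl and 0.350 ± 0.0137 in siNAMPT (SD, n = 3 each), with no overlap between libraries. The RRM1 call was weak, being lost in 8 of 11 alternatives, among them DESeq2 (adjusted p = 0.0692), limma on log2(FPKM + 1) (0.0840) and leaving out any library but siNAMPT replicate 2 (0.0723 to 0.119).

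Licensing and firing factors fell in 6 of 8 cases, with a median of −0.52. MCM10, which helps start the fork, fell most, from 7.82, 7.87 and 8.18 FPKM in siControl to 4.07, 4.41 and 4.62 FPKM in siNAMPT (log2 fold change −0.88, SE 0.07, adjusted p = 7.46e-05). The helicase loader CDC6 was at 28.9, 30.1 and 28.9 FPKM in siControl and 20.3, 21.2 and 20.1 FPKM in siNAMPT (log2 fold change −0.53, adjusted p = 2.60e-04). Its partner CDT1 was at 21.8, 21.7 and 19.5 FPKM in siControl and 16.1, 14.1 and 14.6 FPKM in siNAMPT (log2 fold change −0.51, adjusted p = 0.00251). The groups did not overlap for any of the 3. Geminin (GMNN), the inhibitor of CDT1, had a log2 fold change of −0.21 and was not called (adjusted p = 0.0890). CDC45, which joins the MCM ring as part of the active helicase, fell by 0.55 on the log2 scale.

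Of the 4 GINS subunits, which complete the active helicase, 2 were called lower, against 21.9% of all genes tested. GINS1 was at 13.27, 12.99 and 14.6 FPKM in siControl and 8.01, 9.08 and 7.79 FPKM in siNAMPT (log2 fold change −0.74, SE 0.08, adjusted p = 4.56e-04), and GINS2 fell by 0.39. GINS3 had a log2 fold change of −0.08 (adjusted p = 0.406). GINS4 was at 4.96, 4.59 and 4.88 FPKM in siControl and 4.15, 2.10 and 4.24 FPKM in siNAMPT. All siNAMPT values for GINS4 were lower, but replicate 2 stood far below replicates 1 and 3, and the gene was not called (log2 fold change −0.48, SE 0.24, adjusted p = 0.149). Without that library the log2 fold change of GINS4 was −0.21 (adjusted p = 0.0577 in edgeR).

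The MCM ring, MCM2 to MCM7, fell in 5 of 6 subunits, with log2 fold changes from −0.65 to −0.21. MCM7 was at 58.8, 57.6 and 56.4 FPKM in siControl and 38.3, 37.3 and 35.8 FPKM in siNAMPT (SE 0.05, adjusted p = 9.97e-05). MCM2 was at 79.7, 82.9 and 76.9 FPKM in siControl and 60.8, 56.2 and 53.9 FPKM in siNAMPT (log2 fold change −0.51, SE 0.07, adjusted p = 8.50e-04). These subunits and MCM6 (−0.48) were separate between groups in every library. MCM4 (−0.29) and MCM5 (−0.21) fell less, and the MCM5 call was lost without siControl replicate 1 or 3 or siNAMPT replicate 2 or 3 (adjusted p of 0.0508 to 0.0882). MCM3 overlapped between groups, at 47.7 to 56.5 FPKM in siControl and 39.6 to 50.6 FPKM in siNAMPT (log2 fold change −0.24, adjusted p = 0.0889), and was not called. Without siControl replicate 3, MCM3 was called lower (−0.32, adjusted p = 0.0390 in edgeR), and without siNAMPT replicate 1 it was at −0.16 (adjusted p = 0.224). The ring is built of 1 copy of each subunit, and the highest subunit by FPKM, MCM2, was 2.84 times the lowest, MCM5, in siControl and 2.31 times in siNAMPT.

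Of the 6 subunits of the origin recognition complex, which marks origins, 2 were called lower (33.3%), against 21.9% of all genes tested. ORC1, the subunit whose level follows the cell cycle, was at 16.5, 16.3 and 17.4 FPKM in siControl and 12.7, 13.7 and 13.4 FPKM in siNAMPT (log2 fold change −0.36, SE 0.06, adjusted p = 0.00268), and ORC5 fell by 0.37. ORC2 (−0.14), ORC3 (−0.21) and ORC4 (−0.07) were not called, with adjusted p of 0.121, 0.129 and 0.451. ORC6 was not called either (−0.32, adjusted p = 0.134), but siNAMPT replicate 3, at 4.27 FPKM, sat among the siControl values of 3.97 to 4.44 while the other siNAMPT libraries were at 3.37 and 2.70. Without that library ORC6 was called lower (log2 fold change −0.49, adjusted p = 0.0236 in edgeR), and without siNAMPT replicate 2, the lowest, its log2 fold change was −0.17 (adjusted p = 0.293).

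PCNA is the sliding clamp that holds polymerases on DNA, and it was the most abundant gene of the set per length. Its level was 203.8, 175.9 and 188.1 FPKM in siControl and 133.1, 130.9 and 135.5 FPKM in siNAMPT (log2 fold change −0.53, SE 0.06, adjusted p = 6.14e-04). The siNAMPT libraries were tightly grouped below a wider siControl range. Of the 5 subunits of the clamp loader, RFC3 (−0.42), RFC4 (−0.37) and RFC5 (−0.28) fell. RFC1, at a log2 fold change of −0.27, was not called (adjusted p = 0.0702), and without siNAMPT replicate 1 it was at −0.16. RFC2 was spread alike in both groups, at 9.0, 9.76 and 12.6 FPKM in siControl and 8.76, 12.8 and 9.63 FPKM in siNAMPT (log2 fold change −0.03, adjusted p = 0.912).

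Polymerases and primase fell in 6 of 9 genes (66.7%, against 21.9% of all genes tested), with a median of −0.44. POLD1, the catalytic subunit of the lagging strand polymerase delta, was at 15.2, 14.3 and 14.1 FPKM in siControl and 10.7, 9.19 and 9.84 FPKM in siNAMPT (log2 fold change −0.57, SE 0.08, adjusted p = 0.00108). POLE, the catalytic subunit of the leading strand polymerase epsilon, was at 5.60 to 5.78 FPKM in siControl and 5.18 to 5.25 FPKM in siNAMPT. Its groups did not overlap, but the difference of −0.14 was not called (adjusted p = 0.0551). The accessory subunit POLE2 fell by 0.49, a call lost without siControl replicate 3 (adjusted p = 0.0593) or siNAMPT replicate 1 (0.0508).

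Within polymerase alpha and primase, which lay down the first primers, POLA1 (−0.46) and PRIM1 (−0.44) fell. POLA2 (−0.12, adjusted p = 0.241) and PRIM2 (0.02, adjusted p = 0.817) were not called. Each of the 2 pairs thus held 1 called and 1 uncalled gene, although the difference within a pair was not tested. POLD3 was at 10.7, 11.1 and 11.8 FPKM in siControl and 6.42, 6.10 and 10.5 FPKM in siNAMPT, with replicate 3 close to siControl (log2 fold change −0.56, adjusted p = 0.0476). The POLD3 call was lost without any 1 of siControl replicates 1, 2 or 3 or siNAMPT replicates 1 or 2 (adjusted p of 0.0838 to 0.136), and without siNAMPT replicate 3 its log2 fold change was −0.85. That of POLD2 (−0.26) was lost without siControl replicates 1, 2 or 3 or siNAMPT replicates 2 or 3 (0.0693 to 0.116).

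Both Okazaki fragment enzymes fell, and no subunit of the single-strand binding protein RPA was called. FEN1, the flap nuclease, was at 87.6, 88.2 and 85.9 FPKM in siControl and 63.3, 62.4 and 65.04 FPKM in siNAMPT (log2 fold change −0.48, SE 0.05, adjusted p = 2.26e-04), and the ligase LIG1 fell by 0.27. The LIG1 call was lost without siControl replicate 1 (adjusted p = 0.05002). Of the RPA trimer, which coats unwound DNA, RPA1 was at 35.9 to 36.8 FPKM in siControl and 36.9 to 38.7 FPKM in siNAMPT, with a log2 fold change of 0.03 (SE 0.05, adjusted p = 0.612). RPA2 (−0.03, SE 0.06, adjusted p = 0.710) and RPA3 (−0.13, SE 0.06, adjusted p = 0.117) were not called.

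Behind the fork, CHAF1A, the large subunit of the histone chaperone CAF-1, was at 21.9, 22.0 and 20.6 FPKM in siControl and 16.3, 16.2 and 16.5 FPKM in siNAMPT (log2 fold change −0.42, SE 0.06, adjusted p = 9.84e-04). Its partner CHAF1B (−0.22) missed the threshold with adjusted p = 0.0521 and passed it without siNAMPT replicate 2 (adjusted p = 0.0236). UHRF1, which brings DNA methyltransferase to newly copied DNA, was at 8.99, 11.01 and 9.93 FPKM in siControl and 7.95, 7.06 and 5.71 FPKM in siNAMPT (log2 fold change −0.55, SE 0.13, adjusted p = 0.0139). The spread of UHRF1 within each group was wide, but the groups did not meet.

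**Figure D4:**
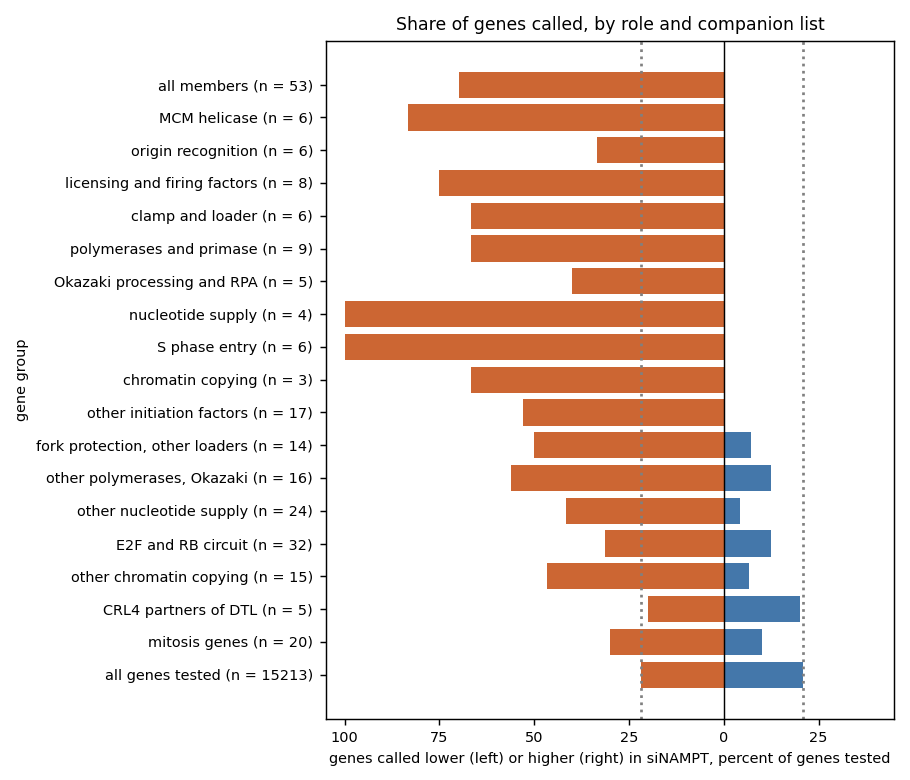
Bars give the percent of genes tested that were called lower (left) or higher (right) in siNAMPT, for the 53 genes, their roles, the companion lists and all genes tested, whose shares are the dotted lines. S phase entry and nucleotide supply reach 100% lower, origin recognition 33.3%, and none of the roles has a bar on the right.

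Other genes of the same or related pathways came from 7 lists that leave out the 53. The lists were chosen with earlier results of these data known, so their shares are no independent finding. Of 123 tested, 53 were called lower (43.1%) and 10 higher (8.13%), with a median of −0.21. Over all genes tested the shares were 21.9% and 20.8%. Among initiation factors 9 of 17 fell, among them CDC7 (−0.71), its activator DBF4 (−0.58) and MCM8 (−0.69). Among fork protection genes and alternative clamp loaders 7 of 14 fell and 1 rose. CLSPN, the checkpoint mediator claspin, went from 8.30 ± 1.08 to 3.28 ± 0.219 FPKM (SD, n = 3 each), and DSCC1 fell by 1.04 on the log2 scale. The topoisomerase TOP1, which relaxes DNA ahead of the fork, rose by 0.42. Of 16 genes listed as other polymerases, other ligases or Okazaki processing genes, 9 fell, most the ligases LIG3 (−1.28) and LIG4 (−1.14). In that list 2 rose, the small polymerase delta subunit POLD4 (0.95) and the translesion polymerase POLH (0.36).

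In nucleotide supply beyond the 4 genes above, 10 of 24 fell and 1 rose. PPAT, the first enzyme of purine synthesis, went from 5.95 ± 0.185 to 2.17 ± 0.158 FPKM (SD, n = 3 each), and RRM2B, the alternative small reductase subunit, fell by 0.60. CMPK1 rose by 0.26. DUT, which makes the substrate of TYMS, was at −0.08 and was not called (adjusted p = 0.529). Of 15 other chromatin copying genes 7 fell and 1 rose, with the histone chaperone ASF1B (−0.61) and the heterochromatin protein CBX5 (−0.59) falling most and RBBP4 rising by 0.17.

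The E2F and RB circuit was mixed, with 10 of 32 genes lower (31.25%) and 4 higher (12.5%), against 21.9% and 20.8% of all genes tested. Cyclin D1 (CCND1) starts the release of E2F in untransformed cells. Its level was 130.9, 128.8 and 133.7 FPKM in siControl and 35.1, 38.2 and 35.8 FPKM in siNAMPT (log2 fold change −1.87, SE 0.05, adjusted p = 2.60e-06). E2F5 fell by 1.16 and RB1 by 0.49. CDKN2B, an inhibitor of cyclin D kinases, rose from 4.10 ± 0.0882 to 11.1 ± 0.825 FPKM (SD, n = 3 each), and FBXW7, the ubiquitin ligase subunit that removes cyclin E, rose by 0.62. The CDK2 inhibitor CDKN1A had a log2 fold change of 0.03 (adjusted p = 0.770). Mitosis genes were set beside these as a second mark of cycling cells. Of 20, 6 were lower (30.0%), 2 were higher (10.0%) and 12 were not called, with a median of −0.14. Over all genes tested 21.9% were lower and 20.8% higher, with a median of 0.00. The summed FPKM of the 20 mitosis genes was 714 to 748 in siControl and 620 to 662 in siNAMPT. KIF23 (−0.83) and CDC20 (−0.64) fell, and NUSAP1 (0.29) and CCNB2 (0.25) rose.

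Some genes that fall in these libraries carry the 7-base word TACCATA in the 3′ UTR, a word taken from earlier results on the same data. It was searched in 1 GENCODE 29 transcript per coding gene, and all 53 replication genes had a 3′ UTR of at least 50 bases. The word was in 5 of the 53 (9.43%) and in 7.77% of all coding genes tested, and its 6-base core ACCATA was in 6 (11.3%) and in 22.5%. Of all coding genes with TACCATA 48.5% were called lower, and of those without it 23.0%. Since the word came from the same data, this contrast is no independent finding, and the length of the 3′ UTR was not taken into account. Of the 47 replication genes without the core, 32 were called lower and 0 higher, with a median of −0.42, while of all coding genes without the core 20.7% were called lower. The 6 replication genes with the core had a median of −0.73, and all coding genes with it −0.19. Of all coding genes with the core, 39.6% were called lower. Of the 6 replication genes with the core, 5 were called lower, namely DTL, CCNE2, GINS1, RRM2 and MCM4. ORC4, which holds 2 copies of TACCATA, was not. The sites of 4 of these genes are shown with 8 bases on the left and 9 on the right of the capitals' 7-base word, on the RNA strand, in GRCh38 coordinates: DTL at chr1:212103109-212103132 (plus strand), GINS1 at chr20:25447555-25447578 (plus), RRM2 at chr2:10129591-10129614 (plus) and the first ORC4 copy at chr2:147934865-147934888 (minus).
DTL: ggttctacTACCATAatgtatatg
GINS1: aatgccaaTACCATAtttgtatgt
RRM2: ctgtgactTACCATAgcagtgaca
ORC4: gttgagccTACCATAggtcaaaag

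The part of this word in the falls of DTL, CCNE2, GINS1 and RRM2 was not tested. Of the genes named from the companion lists, LIG3, PPAT, LIG4, E2F5, RB1, CCND1, CBX5 and the higher FBXW7 hold the core. The lower CLSPN, DSCC1, CDC7, DBF4, MCM8, CDK2, RBX1, RRM2B and ASF1B do not. Nor do the higher CDKN2B, TOP1, POLD4, POLH, CMPK1 and RBBP4, or the uncalled GMNN, DUT, CDKN1A and DDB1. Of the 27 companion genes with the core, 16 were called lower and 2 higher, and of the 94 without it, 37 and 7. These shares were not tested against each other.

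Counts of a few genes may hold reads of a neighbour, since no source used here says whether counting was stranded. On the opposite strand, RFC4 overlaps the more abundant EIF4A2, which rose by log2 0.36, RFC5 overlaps WSB2, which fell by 0.65, and POLA1, at a mean of 28.6 CPM, overlaps EEF1B2P3, which was at 45.7 CPM and fell by 0.24. On the same strand, PRIM1, at a mean of 41.0 CPM, overlaps the more abundant NACA, which was at 156.3 CPM and fell by 0.37. CHAF1B, at 31.5 CPM, overlaps MORC3 on its own strand, which was at 14.5 CPM and fell by 1.08. CCNE2 overlaps INTS8 and NDUFAF6 on the opposite strand, both with a log2 fold change of 0.00. The opposite-strand neighbours of CHAF1A (UBXN6), GINS2 (GSE1) and ORC4 (ACVR2A and MBD5) were not called. Pseudogenes named after FEN1, PCNA, RRM2, TYMS, POLD2 and the RFC and RPA genes had at most 0.402 mean CPM each.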

How the data were processed

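Per the labels' protocols, messenger RNA was isolated from total RNA and the libraries, 3 for siControl and 3 for siNAMPT, were read from both ends by Illumina sequencing. Groups and replicate numbers come from sample titles. The authors deposited whole-number counts per gene, unnormalized, and FPKM, per the file headers; the FPKM equal count over a fixed gene length and library total within 1% for 12960 genes with at least 20 counts in every library. The submitters' processing notes name GRCh38 and mm10. Aligner, counter and annotation: not given in the sources used here. Of the table, 98.5% of gene IDs are in GENCODE 29, and 94.8% of those shared have the same position.

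The count test was edgeR's quasi-likelihood test (version 4.0.16, run in R 4.3.3, with filterByExpr, TMM, glmQLFit and glmQLFTest; two-sided, Benjamini-Hochberg over 15213 genes, threshold 0.05), siNAMPT against siControl. SE is the log2 fold change over the root of F. A count of 3 equals 0.134 to 0.154 CPM. Alternatives were DESeq2 1.42.0, RLE size factors, no filter on low counts, each library left out in turn, a replicate block, and limma 3.58.1 on log2(FPKM + 1) where 3 or more libraries reached an FPKM of 1. All 53 genes could be named, with up to 2 risers and 2 fallers of each companion list, fixed partner genes, NAMPT and cell type markers. The 3′ UTR search took, per gene, the transcript of best APPRIS rank and, among equals, the longest 3′ UTR. The genes and lists were chosen with earlier results of these data known. No 2 libraries were identical; between replicates, chi-square per gene was 11.6 to 16.7, above sampling noise.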

Additional observations from a re-analysis of the deposited data

How the results depend on the processing

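The number of replication genes called lower was 37 with all libraries and 36 with DESeq2, with no filter on low counts and with limma on log2(FPKM + 1). It was 37 with RLE size factors and 38 with the replicate block, which added RFC1 (adjusted p = 0.0441 in edgeR), and 0 were called higher in any of the 11 alternatives. Leaving out 1 library gave 32 to 35 called lower and a median log2 fold change of −0.42 to −0.38. The median was −0.35 with limma on log2(FPKM + 1), a scale that compresses low genes, and −0.43 with the replicate block. Of the 37 genes, 30 were called lower in all 11 alternatives, and the other 7 are CDC25A, LIG1, MCM5, POLD2, POLD3, POLE2 and RRM1. Genes called over the whole table numbered 6500, and 5145 to 6336 in the alternatives other than RLE (6494). Leaving out 1 library moved the uncalled RFC2 between −0.20 and 0.12, above 0 when siControl replicate 3 was dropped, or siNAMPT replicate 1 (0.08) or 3 (0.03). RPA2 moved between −0.076 and 0.0066, above 0 when siNAMPT replicate 3 was dropped. Same-numbered libraries of the 2 groups deviated together only weakly (correlations of 0.07, 0.01 and 0.05), though each siControl library correlated best with its own number, so the numbers were not taken as pairs. With 3 libraries a group, small differences such as that of POLE lie near the threshold.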
